A study of Mus musculus with 9 samples.

Results

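Regulatory T cells (Tregs) sorted from the inflamed joints of arthritic mice were compared with Tregs sorted from the draining lymph nodes of untreated mice. This contrast used 6 of the 9 RNA sequencing libraries of the study, 3 of synovial Tregs from mice with collagen-induced arthritis and 3 of node Tregs from control mice that had no treatment. The other 3 libraries held node Tregs of the arthritic mice, and their levels are given beside the contrast where they help to place a gene. All mice were labelled wild type (WT), and in every group the cells had been released by digestion of paws or nodes and sorted on a yellow fluorescent reporter of Foxp3. Tissue and disease change together here, so that joint against node and arthritic against untreated cannot be told apart in this contrast. The digested material, paws or nodes, differs with them, and its part cannot be told apart either. Ages and strain are not stated in the labels. Titles number the mice, so each library was read as 1 animal. Synovial and arthritic node libraries carry the same mouse numbers and may come from the same animals.

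Tregs are CD4 T cells that carry the transcription factor Foxp3 and hold other immune cells in check. In lymph nodes most of them recirculate, with Ccr7 as a homing receptor and Tcf7 and Lef1 as transcription factors of the resting state. Tregs that live in skin, fat, muscle or gut instead carry an effector program that includes Gata3, the interleukin 33 receptor Il1rl1, Klrg1, Ccr8 and the growth factor amphiregulin.

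Values below are normalized read counts, given for libraries 1, 2 and 3 of a group in that order. The recovered reads numbered 11300406 to 12855435 a library, so that 3 reads equal a normalized value of 3.40 in synovium and 2.82 in control nodes on average. Differences are log2 fold changes of synovial over control node Tregs on log2(value + 1), ± the standard error (SE) of the limma fit with n = 3 libraries a group, and p-values are adjusted by Benjamini-Hochberg over all genes tested. Of 11357 genes tested, 4551 passed an adjusted p of 0.05, which is 40.1%. They comprised 2451 genes higher in synovium (21.6%) and 2100 lower (18.5%). Among them 849 were at least 4-fold higher and 374 at least 4-fold lower. The node contrast that shares these control libraries, arthritic against control, gave 38 genes higher (0.335%) and 1 lower (0.00881%). The split between higher and lower depended on the scaling, because the synovial libraries have larger totals after the authors' normalization (13695934 to 14287247, against 10843384 to 11341883 in control nodes). Of the calls, 53.9% were higher with the deposited scaling, 42.1% with quantile normalization and 31.8% when each library was scaled to its total of reads. The last shifted the median log2 fold change of all genes from 0.02 to -0.29. Gene lists below are counted over the members with a mean of at least 10 over the 9 libraries, and a member read only in synovium passed through that group alone. In a sorted bulk sample, fewer cells of a type and less RNA per cell cannot be told apart.

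**Figure D1:**
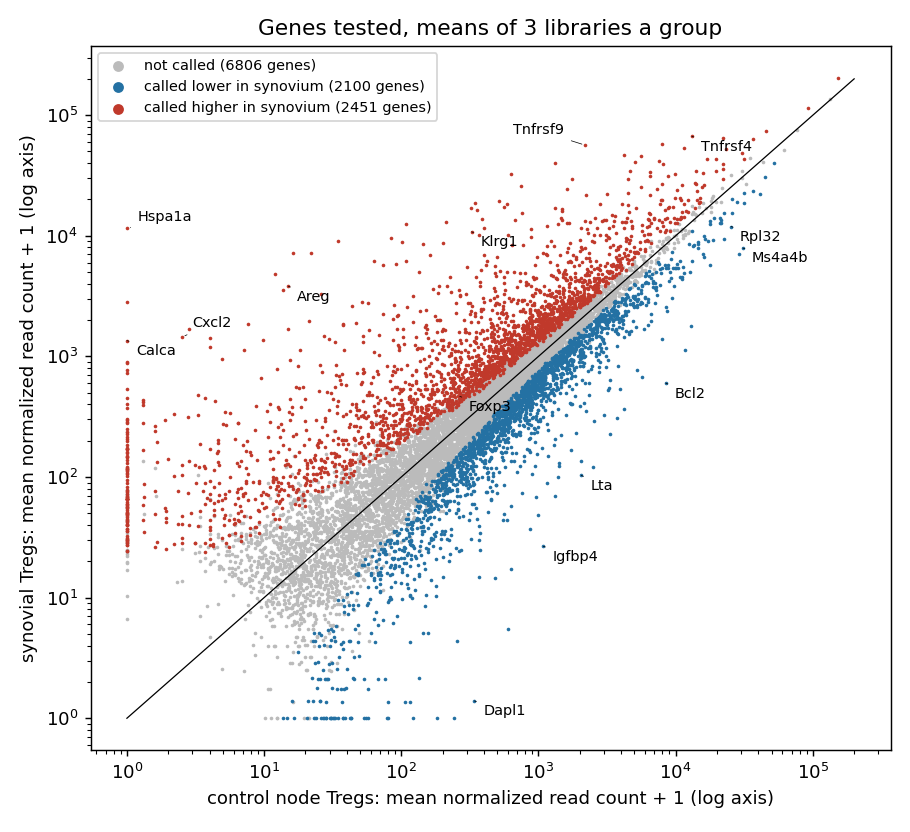
Mean normalized read count + 1 of each tested gene in control node Tregs (horizontal) and synovial Tregs (vertical), both log axes, with the line of equal levels. Each point is a gene: 2451 called higher lie above the line in red and 2100 called lower lie below it in blue, and the column of points at the left edge holds genes with no read in any control node library, Hspa1a and Calca among them.

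The sorted cells were checked first against T cell and Treg markers. Foxp3, the lineage factor on chromosome X (7573644 to 7595245, GRCm38, plus strand), stood at 443, 413 and 538 in synovium and at 224, 170 and 404 in control nodes. All 3 synovial libraries lay above all 3 control libraries, by a narrow margin. The log2 fold change was 0.89 ± 0.30 (adjusted p = 0.0318), and this call was lost without synovial library 1 (0.0679) or 3 (0.104) and without control library 1 (0.0853) or 2 (0.126). It was lost too when libraries were scaled to total reads (adjusted p = 0.149). Exons of Foxp3 overlap other annotated genes on both strands, and the strand setting of the counting is not stated in the labels. Il2ra, the high-affinity interleukin 2 receptor chain, was at 30554, 36794 and 35057 against 13090, 14415 and 14954, a rise of 1.27 ± 0.12 (adjusted p = 6.44e-06). Ctla4, the inhibitory receptor for B7 ligands, read 31601, 21334 and 28124 against 7780, 7553 and 8360 (1.76 ± 0.15, adjusted p = 2.16e-06).

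Of 18 core Treg genes, 13 rose, 3 fell and 2 did not pass the test, with a median log2 fold change of 1.00 beside 0.02 over all genes tested. The counts of 13 and 3 became 10 and 4 with total-read scaling and 9 and 4 with quantile normalization. The ecto-enzyme Nt5e (CD73), which makes adenosine from AMP, rose by 1.67 ± 0.13 on the log2 scale, and Ikzf2 (Helios) by 1.32 ± 0.20. Tnfrsf18 (GITR) rose by 1.70 ± 0.10. Against this direction went Gpr83, a G protein-coupled receptor of Tregs, at 236, 186 and 264 in synovium and 3170, 3740 and 3119 in control nodes. It fell by 3.88 ± 0.18 on the log2 scale (adjusted p = 1.57e-08), and its level in arthritic nodes was 3236, 2407 and 2093. The folate receptor 4 gene, listed as Folr4 and now named Izumo1r, fell by 1.04 ± 0.16. The third gene that fell, Socs1, did so by 0.48 ± 0.14 (adjusted p = 0.0182), a call lost without synovial library 2 (0.0574) or 3 (0.0580) or without control library 3 (0.0771). Nrp1 and Lrrc32 were not called, at -0.34 ± 0.19 and 0.54 ± 0.22.

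The list of effector and tissue Treg genes had 24 members tested, and all 24 rose, with a median log2 fold change of 4.15. Like the other lists it was written with earlier results of these data known, so the count is a description. With libraries scaled to total reads 23 of them were still called. Areg, which encodes the repair factor amphiregulin, read 4252, 3074 and 4127 in synovium and 21.1, 2.71 and 18.3 in control nodes. The fold was 325 on the log2(value + 1) scale (8.34 ± 0.61, adjusted p = 6.07e-07), and arthritic nodes stood at 26.1, 62.5 and 62.0. Il1rl1, the receptor for the alarmin interleukin 33, was at 17510, 10792 and 20847 against 208, 223 and 631, a rise of 5.67 ± 0.39. Klrg1, an inhibitory lectin receptor of effector lymphocytes, read 10410, 8891 and 13044 against 99.4, 262 and 612 (5.40 ± 0.51). For these genes the lowest synovial library was far above the highest control library.

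Transcription factors of this list moved with the receptors. Gata3, which supports Treg fitness in tissues, was at 31610, 40660 and 30028 against 6494, 5970 and 6927 (2.39 ± 0.15, adjusted p = 1.39e-07). Rora rose by 5.20 ± 0.24, Id2 by 4.92 ± 0.18, Nfil3 by 4.68 ± 0.41, Batf by 2.09 ± 0.14 and Prdm1 (Blimp-1) by 3.07 ± 0.37. Pparg, the factor of fat-resident Tregs, was at 224, 161 and 346 in synovium and at 0, 0 and 22.8 in control nodes (6.34 ± 1.33, adjusted p = 0.00243). Surface receptors of the list included Ccr8 (14213, 10071 and 25904 against 1426, 1286 and 1717) and Cxcr6 (21847, 25092 and 31179 against 521, 466 and 1252). Tnfrsf9 (4-1BB) read 47838, 39265 and 81862 against 2279, 2090 and 2216, a rise of 4.61 ± 0.21 (adjusted p = 1.17e-08). In synovial library 3, Ccr8 and Tnfrsf9 were higher than in the other two. Icos and Tigit, a costimulatory and an inhibitory receptor, rose by 3.03 ± 0.16 and 3.70 ± 0.24.

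Suppressive mediators on the same list were Il10, Fgl2 and Gzmb. Il10, an anti-inflammatory cytokine, was at 2860, 1619 and 2046 in synovium and 98.4, 67.7 and 112 in control nodes (4.53 ± 0.48, adjusted p = 1.4e-05). Fgl2, a secreted fibrinogen-like protein, rose by 3.77 ± 0.36 and Gzmb (granzyme B) by 6.12 ± 0.46. Dgat2, an enzyme of triglyceride synthesis, was at 4561, 5595 and 7220 against 39.1, 107 and 125.

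**Figure D2:**
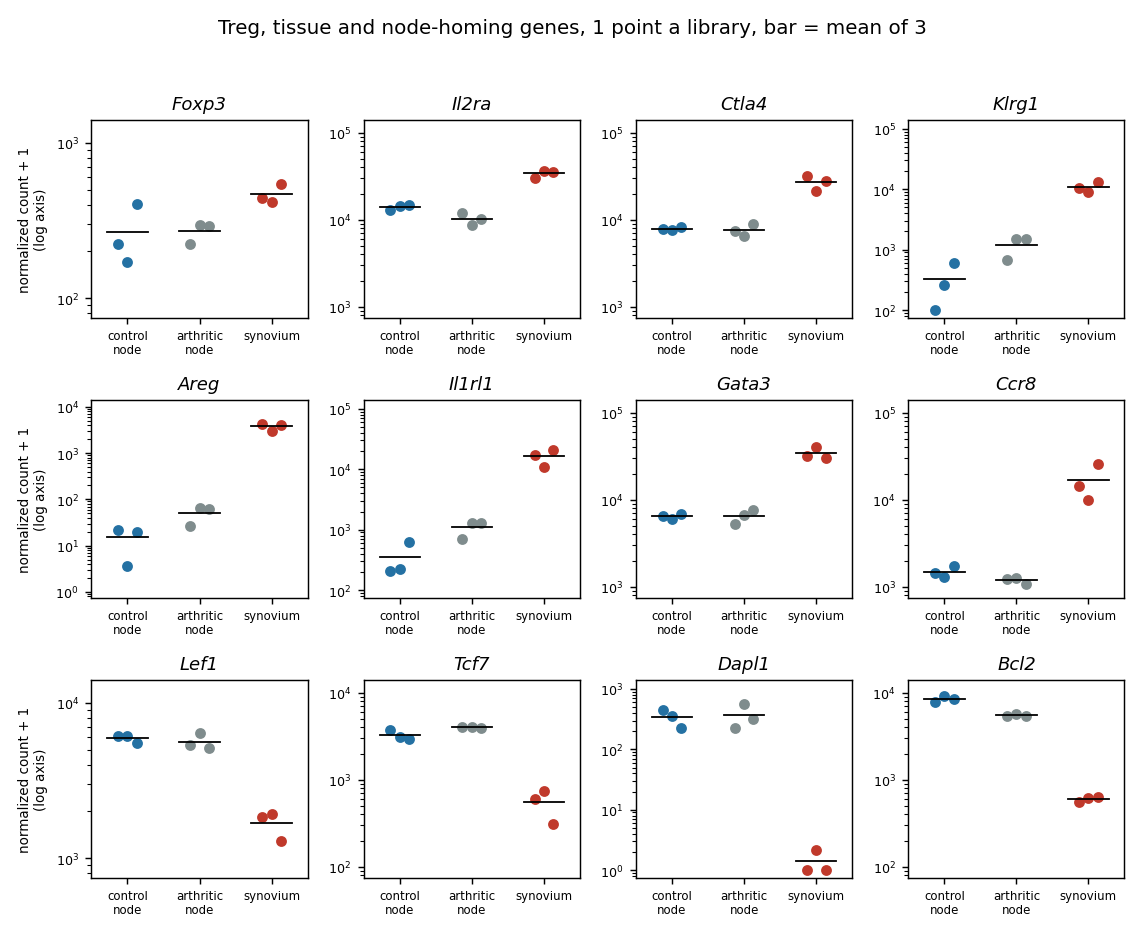
Normalized read count + 1 (log axis) of 12 Treg, tissue and node-homing genes in control node, arthritic node and synovial Tregs, with 1 point a library and a bar at the mean of 3. Synovial points of Klrg1, Areg, Il1rl1, Gata3 and Ccr8 lie above both node groups, those of Lef1, Tcf7, Dapl1 and Bcl2 lie below both, and for Foxp3 the gap to the highest control library is small.

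Genes of resting, recirculating T cells went the other way. Of 18 genes on the naive and node-homing list, 14 fell, 2 rose and 2 were not called, with a median log2 fold change of -2.14. Ccr7, the receptor that guides T cells into nodes, fell by 1.23 ± 0.12 on the log2 scale. Tcf7 was at 594, 746 and 307 against 3760, 3102 and 2913, and Lef1 fell by 1.83 ± 0.15. Bach2, a repressor of effector differentiation, had a log2 fold change of -3.19 ± 0.36, Foxp1 of -1.65 ± 0.15 and Actn1 of -3.73 ± 0.24. The interleukin 6 receptor Il6ra fell by 2.42 ± 0.19.

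Dapl1 was nearly absent from the synovial libraries, with 0, 1.17 and 0 against 443, 352 and 226. It had 1 read over the 3 synovial libraries, and the ratio of control to synovial reads had a 95% counting interval of 160 to 35288. Igfbp4 read 5.51, 12.9 and 58.4 against 1029, 1196 and 1027, and Treml2 read 9.92, 2.35 and 1.12 against 582, 682 and 531. Members that rose were Il7r, the interleukin 7 receptor (1.64 ± 0.21), and the chromatin organizer Satb1 (0.70 ± 0.19, adjusted p = 0.00999). Satb1 kept its direction but lost the call when libraries were scaled to total reads.

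The survival gene Bcl2 was at 548, 619 and 633 in synovium against 7769, 9168 and 8455 in control nodes, and fell by 3.82 ± 0.11 on the log2 scale (adjusted p = 7.26e-10). Arthritic nodes stood between, at 5446, 5703 and 5376. Bcl2 was the only gene called lower in arthritic than in control nodes as well, by 0.62 (adjusted p = 0.0278). Both contrasts share the control libraries. Bcl2l1, which encodes the related survival protein Bcl-xL, went up instead, from 337, 355 and 775 to 4193, 4640 and 5002 (3.34 ± 0.29). The BH3-only death gene Pmaip1 (Noxa) read 10792, 13205 and 11073 against 429, 301 and 465 (4.89 ± 0.20). Across 16 genes of the BCL-2 family and cell death, 7 rose, 3 fell and 6 were not called. The shares were 43.8% higher and 18.8% lower, beside 21.6% and 18.5% of all genes tested, so the share lower was near that of all genes. Those that fell were Bcl2, Casp8 (-0.96 ± 0.10) and Bid (-0.66 ± 0.18).

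**Figure D3:**
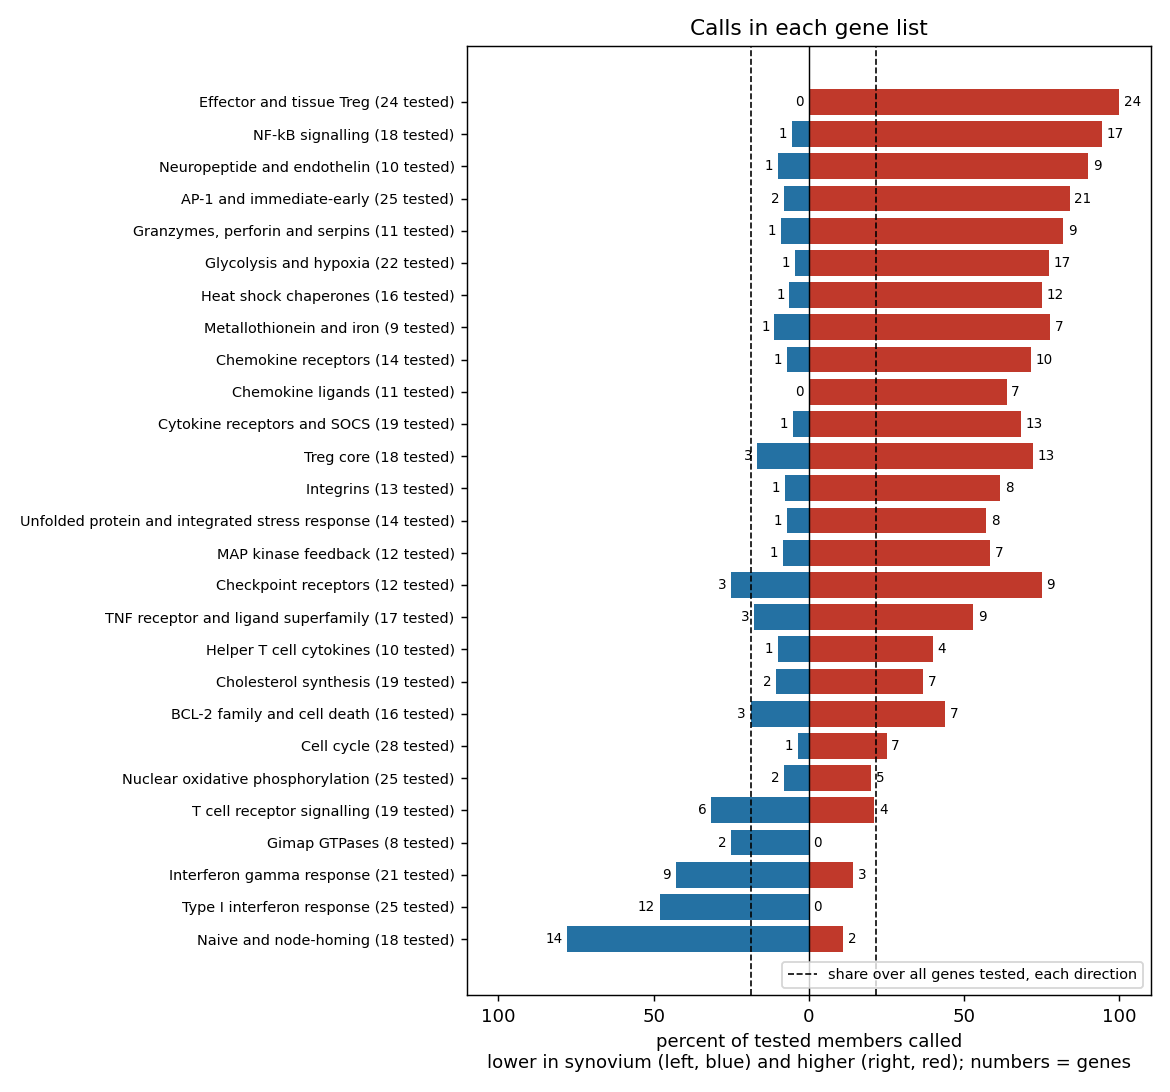
Percent of the tested members of each of the 27 gene lists called lower (left, blue) and higher (right, red) in synovial than in control node Tregs, with the number of genes beside each bar. Dashed lines mark the shares over all genes tested, 18.5% lower and 21.6% higher. The effector and tissue Treg list has all 24 members to the right and the naive and node-homing list has 14 of 18 to the left. All lists were written with earlier results of these data known.

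Chemokine receptors steer T cells into tissues. Of 14 tested, 10 rose, 1 fell and 3 were not called. Ccr2, the receptor of inflammatory monocytes and effector T cells, read 19265, 19905 and 15975 in synovium against 527, 342 and 886 in control nodes, with 1733, 4916 and 5007 in arthritic nodes. Ccr1 was at 3674, 2308 and 4740 against 0, 19.0 and 19.2, and Ccr3 at 812, 916 and 496 against 0, 19.0 and 57.5. Cxcr3, Cxcr4 and the oxysterol receptor Gpr183 rose by 1.19 ± 0.21, 3.25 ± 0.46 and 2.19 ± 0.13. The gut-homing receptor Ccr9 fell by 2.18 ± 0.59 on the log2 scale (adjusted p = 0.0107).

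Of 11 chemokine ligands tested, 7 rose (4 with a minimum mean of 50), 0 fell and 4 were not called. No ligand was lower by edgeR or DESeq2 either, and 0 were lower at an unadjusted p of 0.05. Cxcl2, a ligand that draws neutrophils, was at 960, 701 and 2648 against 0, 4.51 and 0 (9.42 ± 0.89, adjusted p = 5.59e-06). Its neighbour in function, Cxcl3, had no read in control nodes and read 121, 75.1 and 348 in synovium, at least 64.4-fold higher against a floor of 3 reads a library. Ccl5 rose by 3.65 ± 0.48 and Cxcl10 by 3.22 ± 0.59. Cxcl2 and Cxcl3 were highest in synovial library 3.

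Cytokines of helper T cells were measured at low levels. Only 10 of 18 passed the filter on low values, and of those 4 rose, 1 fell and 5 were not called. The count of 4 became 2 with a minimum mean of 50, and that of 1 became 2 without synovial library 1 or with total-read scaling. Il17a had no read in any of the 6 node libraries and stood at 141, 91.6 and 160 in synovium, at least 46.4-fold above the floor of control nodes. Il5 was likewise listed at 0 in all node libraries and at 176, 136 and 432 in synovium, at least 88.0-fold higher. Ifng (interferon gamma) rose from 102, 130 and 63.9 to 277, 236 and 378 (1.61 ± 0.39, adjusted p = 0.00574). Lta, which encodes lymphotoxin alpha, went down from 1623, 2058 and 2468 to 127, 115 and 65.2. It fell by 4.35 ± 0.26 on the log2 scale (adjusted p = 1.39e-07). Tnf was not called, at 359, 197 and 308 against 413, 511 and 383.

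Receptors for cytokines and the SOCS feedback genes gave 13 higher, 1 lower and 5 not called of 19. The count of 1 lower became 0 without synovial library 1 or 2 or control library 3, and 2 and 3 under quantile and total-read scaling. Il1r2, the decoy receptor for interleukin 1, read 13866, 10010 and 24078 against 2269, 870 and 1278 (3.46 ± 0.38). The signalling receptor Il1r1 read 247, 329 and 603 against 0, 0 and 0.913. It had 1 read in control nodes, so the 95% counting interval of the synovial to control ratio ran from 225 to 49705. Both chains of the interleukin 18 receptor rose, Il18r1 by 1.86 ± 0.12 and Il18rap by 4.32 ± 0.40. Il23r was at 368, 341 and 732 against 5.02, 0.903 and 0.913. Ifngr1, the ligand-binding chain of the interferon gamma receptor, read 55592, 67117 and 48771 against 8355, 8199 and 7421 (2.83 ± 0.13, adjusted p = 1.17e-08). Socs3, an inhibitor of interleukin 6 signalling, rose by 3.16 ± 0.27 and was at 1091, 1590 and 1700 in arthritic nodes against 220, 412 and 292 in control nodes.

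In the TNF receptor and ligand superfamily 9 of 17 rose, 3 fell (1 without control library 1) and 5 were not called. The shares were 52.9% higher and 17.6% lower, beside 21.6% and 18.5% of all genes tested. Tnfrsf4 (OX40) read 61791, 72570 and 65988 against 13578, 12256 and 13494 (2.35 ± 0.10, adjusted p = 7.63e-09). Tnfrsf1b, the TNF receptor 2 that Tregs use, rose by 2.60 ± 0.23, and Tnfrsf8 (CD30) by 3.37 ± 0.65. Among checkpoint receptor and ligand genes, 9 of 12 rose and 3 fell. Pdcd1 (PD-1) was at 12502, 12657 and 16972 against 1481, 1387 and 1500 (3.25 ± 0.12). Havcr2 (TIM-3) was at 3026, 2716 and 4079 against 4.01, 1.81 and 69.4, Lag3 rose by 1.74 ± 0.37, and the ligand gene Cd274 (PD-L1) by 1.87 ± 0.25. The near-identical receptor genes Lilrb4 and Gp49a (Lilr4b) rose by 6.97 ± 0.37 and 8.25 ± 0.47, and reads may be split between them. Cd160 went down from 222, 142 and 170 to 25.3, 8.22 and 1.12.

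NF-kB is a family of transcription factors held inactive by inhibitor proteins until receptors of the TNF, interleukin 1 or antigen receptor families signal. Of 18 NF-kB genes tested, 17 rose and 1 fell, with a median log2 fold change of 1.77. The list includes subunits and the inhibitors that the pathway itself induces. Rel, the c-Rel subunit, read 8811, 7515 and 8781 in synovium against 544, 666 and 697 in control nodes (3.72 ± 0.15, adjusted p = 6.47e-09). Nfkb2 rose by 2.51 ± 0.24. Nfkbia, which encodes the inhibitor IkB alpha, was at 35381, 32113 and 49508 against 9402, 7654 and 7392 (2.24 ± 0.15). Tnfaip3, the ubiquitin-editing inhibitor A20 on chromosome 10 (19000910 to 19015657, GRCm38, minus strand), was at 27828, 26322 and 34566 against 1906, 1575 and 1822, a rise of 4.06 ± 0.12 (adjusted p = 9.22e-10). In arthritic nodes Tnfaip3 was at 1704, 1647 and 1926, which overlapped the control node values. The kinase gene Ikbkb fell by 0.62 ± 0.12 on the log2 scale.

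The 250 bases before the annotated start are shown for 3 of the genes that rose, 2 feedback inhibitors and the chemokine Cxcl2, because each holds a kB letter pattern. They are RefSeq sequence on GRCm38.p6, written 5′ to 3′ on the gene's strand, with the match to GGAATTTCC (searched on both strands, so that GGAAATTCC counts) in capitals. Of the Tnfaip3 starts in the table, 1 of 2 is shown.
Nfkbia, chr12:55492648-55492897, minus strand: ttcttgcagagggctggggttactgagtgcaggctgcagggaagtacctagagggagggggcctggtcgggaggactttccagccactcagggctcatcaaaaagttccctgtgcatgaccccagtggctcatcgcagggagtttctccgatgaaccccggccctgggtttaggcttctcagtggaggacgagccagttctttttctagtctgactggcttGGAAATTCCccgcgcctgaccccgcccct
Tnfaip3, chr10:19015411-19015660, minus strand: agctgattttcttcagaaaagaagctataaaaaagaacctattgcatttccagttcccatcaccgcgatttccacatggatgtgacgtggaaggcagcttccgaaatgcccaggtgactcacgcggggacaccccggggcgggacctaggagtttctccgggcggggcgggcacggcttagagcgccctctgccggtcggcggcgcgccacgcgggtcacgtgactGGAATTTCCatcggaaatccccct
Cxcl2, chr5:90903649-90903898, plus strand: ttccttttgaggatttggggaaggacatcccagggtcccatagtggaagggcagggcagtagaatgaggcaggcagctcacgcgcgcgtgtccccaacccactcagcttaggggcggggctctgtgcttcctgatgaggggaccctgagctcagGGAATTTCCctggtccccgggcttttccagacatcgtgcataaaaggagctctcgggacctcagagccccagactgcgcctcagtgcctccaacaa
The matches begin 29, 24 and 96 bases before the start. The pattern occurred in 94 of 32851 windows of this length in the table (0.286%). It was found in 4 of 10 chemokine ligand genes that matched (Cxcl1, Cxcl2, Cxcl3 and Cxcl10) and in 2 of 13 NF-kB genes (Nfkbia and Tnfaip3). A gene counted if any of its starts matched, so gene shares and the window share are unlike measures. The AP-1 site TGANTCA (6.75% of windows) was in 3 of 13 NF-kB, 1 of 10 chemokine ligand and 1 of 22 AP-1 and immediate-early genes. For the CRE core TGACGT (6.47% of windows) these counts were 3 of 13, 1 of 10 and 6 of 22. A match describes the letters and was not tested for binding.

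Immediate-early genes and AP-1 subunits are switched on within minutes of a stimulus. Of 25 tested, 21 rose, 2 fell and 2 were not called. Fosl2, an AP-1 subunit, read 5317, 5675 and 3455 in synovium, 63.5, 152 and 83.9 in arthritic nodes and 5.02, 8.12 and 20.1 in control nodes. Its log2 fold change was 8.81 ± 0.47 (adjusted p = 4.23e-08), and arthritic nodes were above control nodes too (3.17, adjusted p = 0.0144). Fos was at 6792, 4110 and 17607 against 145, 97.5 and 5.48, and spread widely within both groups. Junb rose by 3.87 ± 0.19. Atf3, a stress-induced repressor, was at 1056, 850 and 937 against 0, 0 and 11.9. The orphan nuclear receptor genes Nr4a1 and Nr4a2 rose by 2.99 ± 0.18 and 4.65 ± 0.43, and Gadd45b was at 6400, 4249 and 7835 against 46.2, 59.6 and 81.3. Egr2 and Myc fell, with log2 fold changes of -1.46 ± 0.24 and -1.54 ± 0.15. Of the phosphatases that turn MAP kinases off, Dusp1 (38900, 41920 and 41484 against 5686, 5961 and 3568), Dusp4 and Dusp14 rose, and Dusp2 fell by 1.78 ± 0.19 on the log2 scale.

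The largest log2 fold change among the genes tested was that of a heat shock chaperone. Hspa1a, an inducible Hsp70 gene on chromosome 17 (34969190 to 34972156, GRCm38, minus strand), read 9325, 11453 and 13698 in synovium and 0 in each control node library. It was at least 4076-fold higher against the floor of 3 reads a library, and arthritic nodes held 18.3, 27.9 and 0. Its near-identical neighbour Hspa1b read 174, 184 and 236 against 0 in each control library, and the split of reads between both copies is uncertain. Of 16 chaperone genes tested, 12 rose, 1 fell and 3 were not called. Dnajb1, an Hsp40 partner of Hsp70, was at 10989, 14390 and 13629 against 2813, 2445 and 1923 (2.45 ± 0.22). Hsp90aa1 rose by 1.86 ± 0.20 and Bag3 by 3.00 ± 0.48. Hsf1, the factor that drives these genes, fell by 0.87 ± 0.13 on the log2 scale. Of 14 genes of the unfolded protein and integrated stress responses, 8 rose, 1 fell and 5 were not called. Ppp1r15a (GADD34) rose by 4.37 ± 0.17 and the endoplasmic reticulum chaperone Hspa5 by 1.37 ± 0.11.

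The stretch before Hspa1a is printed because it is the gene of the highest fold and carries 2 inverted units of the heat shock element, GAANNTTC, in capitals.
Hspa1a, chr17:34972157-34972406, minus strand: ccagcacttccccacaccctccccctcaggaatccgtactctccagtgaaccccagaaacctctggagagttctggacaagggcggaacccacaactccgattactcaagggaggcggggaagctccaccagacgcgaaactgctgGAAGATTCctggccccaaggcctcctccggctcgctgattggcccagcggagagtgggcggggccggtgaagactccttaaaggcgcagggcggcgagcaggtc
The match begins 104 bases before the start. This 8-letter pattern occurred in 2199 of 32851 windows (6.69%) and in 7 of 12 chaperone genes that matched the table, where any start of a gene could match.

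1 synovial library differed from the other 2 in matrix genes. Synovial library 3 had the highest Fos, Cxcl2 and Hspa1a and also the most RNA of matrix genes, with Fn1 (fibronectin) at 65.0, 45.8 and 1239 and Sparc at 44.1, 71.6 and 768. Without that library 4085 genes were called in place of 4551, and the counts of chaperone and NF-kB genes called higher stayed at 12 and 17. The part of this matrix RNA in the stress gene levels of the library was not tested.

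Neuropeptides, endothelins and their receptors link nerves and vessels to immune cells. Of 17 such genes 10 passed the filter on low values, and of these 9 rose (7 to 11 over the settings) and 1 fell, beside 21.6% and 18.5% of all genes tested. Members with no control read, Ednrb and Calca among them, passed through synovium alone and could only rise. Ednrb, the endothelin B receptor on chromosome 14 (103814625 to 103844402, GRCm38, minus strand), read 2325, 2226 and 3921 in synovium and 0 in every control library, at least 1002-fold higher. In arthritic nodes it read 8.70, 2.89 and 0. Calca, which encodes calcitonin and the neuropeptide CGRP, was at 1165, 1083 and 1808 against 0 in every control library, at least 479-fold higher. The CGRP receptor is built from Calcrl and Ramp1, which rose by 0.91 ± 0.22 and 1.69 ± 0.22. Ramp3, the partner that turns Calcrl into an adrenomedullin receptor, was at 5515, 4097 and 7575 against 65.2, 129 and 21.9 (6.58 ± 0.48, adjusted p = 6e-07). Penk, the precursor of enkephalin opioid peptides, read 13274, 6509 and 16409 against 1108, 840 and 1537 (3.32 ± 0.29), and Pcsk1, a protease that processes such precursors, read 1451, 811 and 2759 against 0, 0 and 5.48. The member that fell, Vipr1, read 22.0, 10.6 and 1.12 against 40.1, 39.7 and 88.6 (adjusted p = 0.0219), a call lost without synovial library 3 (0.0599) or control library 3 (0.0781).

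**Figure D4:**
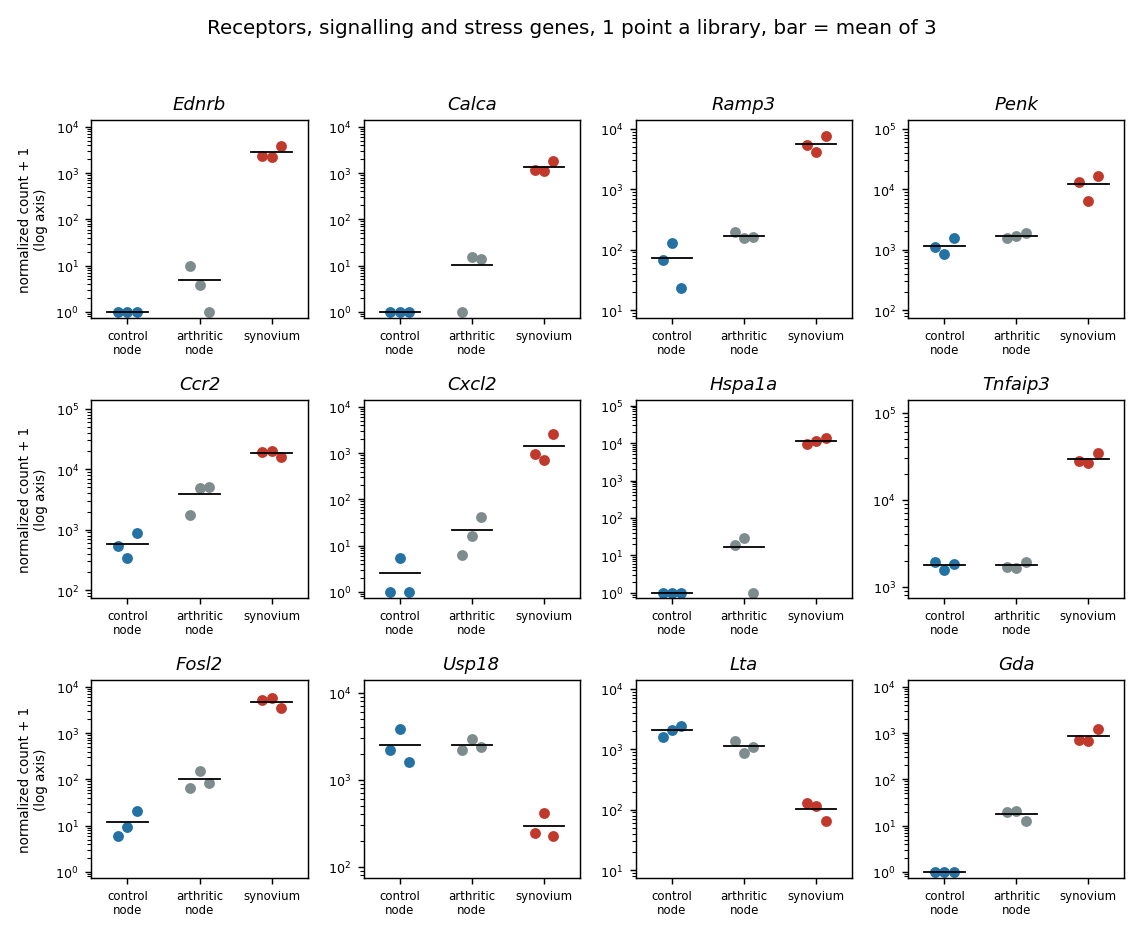
Normalized read count + 1 (log axis) of 12 receptor, signalling and stress genes in the same 3 groups, with 1 point a library and a bar at the mean of 3. Control node points of Ednrb, Calca, Hspa1a and Gda sit at no read, and Usp18 and Lta are lowest in synovium. Ccr2, Fosl2 and Gda are among those also called higher in arthritic than in control nodes.

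Interferon-stimulated genes signal exposure to antiviral cytokines. Of 25 genes of the type I interferon response, 0 rose, 12 fell and 13 were not called, with a median log2 fold change of -0.85. In limma 1 of them, Isg15, was higher at an unadjusted p of 0.05, and edgeR and DESeq2 also called 0 higher, while limma called 1 higher without control library 1 or 2 and with the replicate block. Usp18, an enzyme that removes the ISG15 tag, was at 244, 410 and 222 in synovium and 2184, 3846 and 1584 in control nodes. It fell by 3.07 ± 0.30 on the log2 scale (adjusted p = 6.41e-06), and arthritic nodes held 2173, 2909 and 2354. The antiviral genes Oas2 and Ifit2 fell, with log2 fold changes of -4.05 ± 0.63 and -1.71 ± 0.21. Isg15 was not called, at 0.76 ± 0.31. The receptor chain Ifnar1 went up, by 1.51 ± 0.14. Of 21 genes of the interferon gamma response, 9 fell, 3 rose and 9 were not called. The count of 3 became 0 under quantile or total-read scaling and without synovial library 1 or control library 2, and 1 without control library 1 or 3. The GTPase gene Iigp1 read 2332, 1773 and 457 against 5457, 5000 and 3309, and the immunoproteasome subunit gene Psmb10 fell by 1.16 ± 0.12 on the log2 scale.

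Metabolic lists moved in part. Of 22 glycolysis and hypoxia genes, 17 rose, 1 fell and 4 were not called. Hif1a, a transcription factor regulated by oxygen, was at 22586, 18600 and 25970 against 3776, 3055 and 2681 (2.82 ± 0.14, adjusted p = 3.25e-08). Its target Egln3 rose by 4.70 ± 0.39, and the lactate exporter Slc16a3 read 630, 331 and 1568 against 33.1, 11.7 and 28.3. Pdk1 fell by 1.96 ± 0.16 on the log2 scale. Of 25 nuclear genes of oxidative phosphorylation, 5 rose, 2 fell and 18 were not called. The share called higher (20.0%) was near the 21.6% of all genes, and the share lower (8.0%) was under their 18.5%. The counts of 5 and 2 turned to 1 and 11 under quantile normalization and to 1 and 14 with total-read scaling. Cholesterol synthesis gave 7 higher, 2 lower and 10 not called of 19. With total-read scaling 5 were higher and 5 lower, and without synovial library 2 or control library 1 the count of 2 lower became 1. Of 9 metallothionein and iron genes 7 rose and 1 fell (0 without control library 1 or 3). Mt1, a metal-binding protein gene, was at 1116, 802 and 1682 against 0, 4.51 and 4.56, and the iron store gene Fth1 read 52367, 46924 and 61398 against 11396, 12436 and 10759.

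Proliferation genes were counted next. Of 28 cell cycle genes, 7 rose, 1 fell and 20 were not called, a share called higher near the 21.6% of all genes. The count of 7 became 2, 3 and 1 without synovial library 1, synovial library 3 and control library 2, and 13 without control library 3. Mki67, the Ki-67 gene, read 718, 389 and 879 against 313, 96.6 and 316 (adjusted p = 0.017), and lost its call without synovial library 1 (0.0593) or 3 (0.0785) or control library 2 (0.0587). Cenpa, a centromere histone, was called under all of these settings at 2589, 3087 and 2849 against 542, 432 and 704. The cell cycle inhibitor Cdkn1a (p21) was at 6877, 8743 and 5956 in synovium, 64.4, 97.2 and 103 in arthritic nodes and 25.1, 9.93 and 28.3 in control nodes (8.45 ± 0.37).

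Adhesion and antigen receptor genes complete the lists. Of 13 integrin and adhesion genes, 8 rose, 1 fell (3 and 2 under quantile and total-read scaling) and 4 were not called. Itgav, which encodes the integrin alpha V, read 9877, 9357 and 11258 against 359, 306 and 438 (4.80 ± 0.15), and Itgb8, its partner in activating TGF beta, rose by 3.05 ± 0.30. Itga6 fell by 2.27 ± 0.16 on the log2 scale. T cell receptor signalling gave 4 higher, 6 lower and 9 not called of 19, and 12 to 13 lower under total-read or quantile scaling. Its shares were 21.1% higher and 31.6% lower, beside 21.6% and 18.5% of all genes tested. The phosphatase gene Ptpn6 (SHP-1) was at 711, 498 and 391 against 4202, 3663 and 3953, and the ubiquitin ligase gene Cblb, a brake on signalling, rose by 1.97 ± 0.17. Of 8 Gimap GTPase genes, 2 fell and 6 were not called. The 2 became 6 and 7 under quantile and total-read scaling and 4 without synovial library 2. Granzymes and serpins rose in 9 of 11, while Prf1 (perforin) fell by 2.15 ± 0.34 on the log2 scale.

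Outside the lists, the genes of the largest fold by the naming rule were as follows. Trf, which encodes the iron carrier transferrin, read 5426, 8594 and 7404 against 19.1, 0 and 26.5 (9.74 ± 1.01). Gda, guanine deaminase, had no read in control nodes, 18.3, 20.2 and 11.4 in arthritic nodes and 725, 685 and 1238 in synovium, at least 313-fold above control. Irg1 (now Acod1), the itaconate-making enzyme best known from macrophages, was at 831, 925 and 535 in synovium and at 0 in all 6 node libraries, at least 271-fold higher. The Notch target Hey1 was at least 188-fold higher, and Ermn and Tubb6 had log2 fold changes of 8.89 ± 1.11 and 8.86 ± 0.71. Among genes with no synovial read, Art4 read 193, 282 and 247 in control nodes, at least 70.7-fold more than the synovial floor. The transporter gene Slc16a5 was at least 53.1-fold lower, Tmem108 35.7-fold, Wnt10a 23.4-fold and Ampd1, an AMP deaminase, 22.9-fold. Gata1, a factor of red cell and mast cell lineages, read 22.0, 27.0 and 0 against 661, 587 and 632. Bank1 and Atp1b1 had log2 fold changes of -6.21 ± 0.69 and -6.04 ± 0.92, and Arhgap20, Ptk2, Sardh and Pid1 had 3 or fewer reads over the synovial libraries.

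By difference of means, the 10 genes that gained most were Tnfrsf9, Tnfrsf4, Ifngr1, H3f3b, Emb, Fth1, Icos, Id2, Dusp1 and Srgn. Emb, a cell adhesion glycoprotein, read 44341, 48672 and 47143 against 4800, 4085 and 3795 (3.47 ± 0.10, adjusted p = 8.65e-10). Srgn, the serglycin that packs secretory granules, rose by 2.44 ± 0.11, and H3f3b, a histone H3.3 gene, by 1.56 ± 0.12. The 10 that lost most included Ms4a4b, Ms4a6b, Rpl32, Rps19, Smc4, Slfn1, Rpl13, Rps18 and Rpl35. Ms4a4b, a membrane protein of T cells, read 7949, 10774 and 5012 against 32608, 33231 and 26730, and Slfn1, linked to T cell quiescence, 1049, 1599 and 750 against 13673, 12432 and 8711. Of these last 10 genes 5 encode ribosomal proteins, and that family was counted after its values were seen. Of 75 ribosomal protein genes tested, 72 fell, 0 rose (by limma, edgeR or DESeq2; 0 at an unadjusted p of 0.05) and 3 were not called, with a median log2 fold change of -0.77. Rpl32 read 13566, 10527 and 11705 against 25311, 26918 and 23722. The count of ribosomal protein genes called lower ran from 66 to 72 over the settings tried, the scalings included, and 0 were called higher in any.

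Some of these genes were already raised in arthritic nodes. Among the 38 genes higher in arthritic than in control nodes, those that were also higher in synovium and largest by the naming rule included Gda, Fosl2, Cdkn1a, Srxn1, Gp49a, Il1r1 and Klrc1. Further genes named above were among the 38. Arthritic over control node, the log2 fold change was 3.50 for Gzmb (adjusted p = 0.0121) and 2.68 for Ccr2 (0.0132). Id2 (1.53), Icos (0.95), Lilrb4 (2.45), Gpr183 (1.01), Gadd45b (1.81), Emb (0.75) and Il18r1 (0.68) were also called. Areg, Il1rl1, Klrg1, Gata3, Ccr8 and Il10 were not called there. Srxn1, an antioxidant enzyme gene, was at 292, 422 and 547 in synovium, 19.1, 34.6 and 47.2 in arthritic nodes and 0, 0 and 0.913 in control nodes. Klrc1, an NKG2 lectin receptor also found on natural killer cells, was at 186, 248 and 425, then 10.4, 28.9 and 21.0, then 0 in each control library. For each of the genes named here the arthritic node mean was under the synovial mean. Both contrasts share the control libraries, so these levels are set side by side without a test of overlap.

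Markers of other cells were measured in the same libraries. The T cell list, 8 genes with a row, summed to 128068 to 132233 in synovium and 70440 to 72605 in control nodes. Most of this rise lay in the Treg genes Il2ra, Ctla4 and Ikzf2, with means of 34135, 27019 and 19902 against 14153, 7898 and 7780. Of the list 6 were called higher and 0 lower, which became 3 and 1 with total-read scaling and 4 and 2 with quantile normalization. Macrophage and monocyte markers summed to 5474 to 7574 in synovium and 11128 to 11585 in control nodes. In control nodes 7 of the 16 markers had no read, so this sum rests on the others and does not measure macrophage number. Of those 16 markers 6 passed the filter, 1 rose and 3 fell (1 without synovial library 3, control library 1 or control library 3), and Adgre1 (F4/80), Mrc1, Fcgr1, C1qc, Marco and Vsig4 had no read in synovium. The one that rose, Cd14, read 70.5, 196 and 66.3 against 0 in every control library. Dendritic cell markers summed to 13193 to 16213 against 3112 to 4819, nearly all of it Cd74 (12582, 14727 and 11868 against 4677, 2987 and 4568), and 5 of 6 tested rose (3 without synovial library 1 and 3 with DESeq2). Xcr1 was at 307, 540 and 471 against 20.1, 42.4 and 30.1 and Zbtb46 at 537, 538 and 607 against 18.1, 14.4 and 15.5, while Itgax (CD11c) and Clec9a had no read in either group. Mast cell markers rose in 2 of 3 tested, Kit (402, 835 and 523 against 55.2, 44.2 and 49.3) and Hdc, and 7 of 10 had no read in synovium. The third, Cpa3, was called lower at 4.41, 0 and 14.6 against 22.1, 37.9 and 59.3, a call lost without synovial library 2 or control library 2 or 3. Markers of CD8 T, natural killer and gamma delta T cells summed to 398 to 672 in synovium and 104 to 184 in control nodes, with no overlap. Of 5 tested, 2 rose, Klrc1 and Gzma (55.1, 27.0 and 8.99 against 0 in each control library), and Cd8a, Ncr1 and Klra8 had no read in synovium. Fibroblast and lining markers summed to 3135 to 7764 against 4218 to 4398, with 3 of 9 tested higher and Prg4 lower, and Pdgfrb without a read in synovium. Of 16 fibroblast and lining markers, 6 had no read in control nodes, so that sum too rests on the others. Neutrophil markers summed to 39.7 to 125 against 30.1 to 48.4. B cell markers summed to 309 to 546 against 511 to 586, with Pax5 without a read in both groups. The part of these cells in the gene differences above was not tested.

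**Figure D5:**
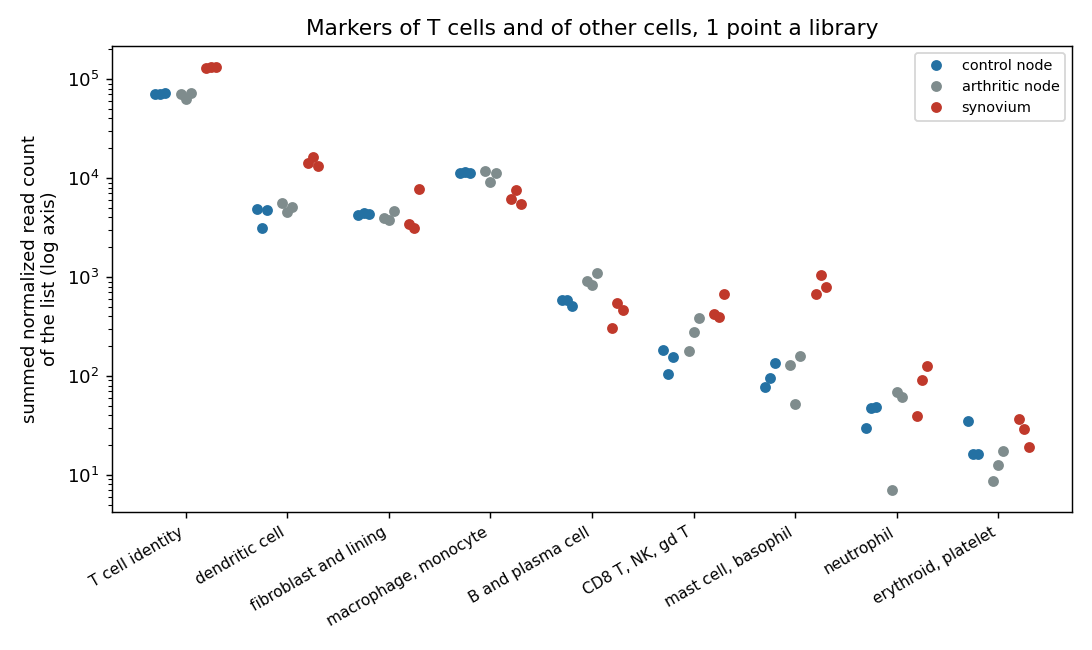
Summed normalized read count (log axis) of 9 marker lists, with 1 point a library in control node, arthritic node and synovial Tregs. Sums of the T cell, dendritic, mast cell and CD8 T, NK and gamma delta T lists are higher in synovium. The macrophage sum is lower, though its member Cd14 is higher. In the fibroblast list synovial library 3 stands highest of its group. Most of the rise of the T cell list lies in Il2ra, Ctla4 and Ikzf2.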

How the data were processed

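RNA was sequenced from 9 sorted mouse Treg libraries in 3 groups of 3, and groups and mouse numbers were read from the sample titles. The submitters' processing notes name HISAT2, HTSeq, DESeq2 and mm10, with no annotation or strand setting of the counting given in the sources used here. The kit is directional per the labels' protocols. The deposited table holds a normalized signal for 23420 genes: read counts divided by 1 factor a library. This was tested on the values: per library, 100% of the values above 0 divide by 1 constant to whole numbers (tolerance 0.01), which gave the reads back. A second deposited table was not used here.

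Genes were tested with limma 3.58.1 under R 4.3.3 (lmFit, eBayes with trend) on log2(normalized value + 1) for 11357 genes whose mean reached 10, with all 9 libraries in 1 fit, two-sided, adjusted by Benjamini-Hochberg. The added 1 lowers the fold of low genes. A group with no read gets a bound against 3 reads a library; with 1 to 3 reads an exact 95% counting interval is given. Both cover counting error only. The p-values rest on the spread between animals within groups, pooled over all groups, arthritic nodes included, and moderated across genes. Synovial and arthritic node libraries may share animals, which the main fit ignores. With the animal as a random effect 4552 genes were called.

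The contrast, the 27 program lists and 12 lists of other cells (608 genes, some in several lists) were chosen with earlier results of these data known, so their counts are descriptions. Named genes were up to 15 a direction by log2 fold change (higher group at 50 or above on average, no overlap of libraries), up to 10 by difference of means (at least 2-fold), up to 8 also called in arthritic nodes, and list members; predicted genes, pseudogenes and receptor segments were left out, and some genes are not reported here. Positions are GENCODE vM21 on GRCm38; promoters are RefSeq on GRCm38.p6 (32851 windows of 250 bases before a start, searched on both strands). Among the list symbols, 7 had no matching gene name in the deposited expression values.

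Alternatives changed pseudocount, filter, variance model, libraries in the fit, scaling (TMM, quantile, and total reads, the last added after seeing the data), test (edgeR 4.0.16 quasi-likelihood and DESeq2 1.42.0 on recovered reads), threshold, a replicate block, the animal as a random effect, and each library left out. On simulated counts of 11357 genes with 200 changed in this contrast, limma recovered 46.3% of 2-fold, 62.7% of 4-fold and 83.3% of 8-fold changes. The data gave 4551 calls, far more than 200. Adjusted p-values depend on the share of changed genes, so these rates cannot be read as those of the data.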

Additional observations from a re-analysis of the deposited data

How the results depend on the processing

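The 4551 calls became 2646 with a 2-fold minimum and 2934 at an adjusted p under 0.01. Under the other settings the count stayed within 1.5 times: 4305 with edgeR, 4718 with DESeq2, 4066 with only the 6 libraries compared, and 3823 to 4121 when 1 library was left out (2004 to 2284 higher, 1694 to 1943 lower). Scaling each library to its total reads gave 3519 lower and 1638 higher, and 16 of the 4551 calls changed sign. With quantile normalization 30 did, with a median log2 fold change of -0.13 over all genes. The mouse numbers do not pair synovial and control libraries, which come from different animals: residuals of same-numbered libraries correlated at -0.02, 0.03 and 0.05. With the number as a replicate block 4204 genes were called. Of the 195 tested genes named here, 191 were called; of these 178 also changed at least 2-fold and 183 had an adjusted p under 0.01. With the threshold at 0.05, 7 of the 191 (Foxp3, Mki67, Socs1, Vipr1, Satb1, Cpa3 and Cxcl1) lost the call under at least 1 other setting, all but Satb1 with 1 library left out; none of the named genes changed direction. Genes in program lists called in either direction numbered 311, and 275 to 326 over the settings. Depth limits genes near 3 reads a library, where a value of 0 is not absence.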

Other observations

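Further members of the lists were measured. Mcm7, a subunit of the replicative helicase, fell by 0.65 ± 0.14 on the log2 scale, the one of 28 cell cycle genes called lower. Dhcr7, the last enzyme of cholesterol synthesis, read 205, 203 and 201 in synovium against 522, 437 and 544 in control nodes. Ddit4, an inhibitor of mTOR signalling, fell by 0.54 ± 0.14. Tnfrsf26 had a log2 fold change of -1.12 ± 0.25 among TNF receptors and Cd200 of -1.12 ± 0.27 among checkpoint genes. Of the Gimap GTPases, which support lymphocyte survival, Gimap4 and Gimap9 fell, with log2 fold changes of -0.51 ± 0.13 and -0.71 ± 0.15.

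Kinases close to the antigen receptor were also measured. Lck fell by 0.56 ± 0.09 and Prkcq (PKC theta) fell by 1.55 ± 0.13 on the log2 scale. The neuromedin U receptor Nmur1 read 71.6, 55.2 and 97.8 in synovium, 6.96, 12.5 and 50.7 in arthritic nodes and 0, 13.5 and 0 in control nodes. The adhesion ligand Icam1 was at 5231, 3835 and 4095 against 1044, 767 and 981 (2.23 ± 0.16), and Serpinb9, an inhibitor of granzyme B, rose by 2.85 ± 0.34. Perp and Sfn, listed as keratinocyte markers, rose as well, Sfn from 96.4, 84.9 and 146 to 704, 955 and 879, while Krt10 fell by 1.84 ± 0.32. The part of other cells in these values was not tested.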
